A study of Mus musculus with 27 samples.

Results

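The genes described here are 10 genes of the NF-κB system in mouse splenic B cells, of 54532 genes in the deposited count tables. They were chosen by gene name: the 5 subunits of the transcription factor (Nfkb1, Nfkb2, Rel, Rela and Relb) and 5 genes grouped here as its inhibitors (Nfkbia, Nfkbie, Nfkbiz, Nfkbid and Tnfaip3). All 10 were present in both tables, and all 10 passed the filter on low counts in every comparison. The study examined how disulfiram (DSF), a drug given against alcohol dependence, acts on activated B cells.

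B cells came from the spleen of wild-type (WT) C57BL6 mice, were enriched by depleting other cell types, and were cultured for 3 h. In the first experiment there were 4 samples in each of 5 groups: unstimulated cells, cells given LPS, cells given LPS and 1 μM DSF, cells given IL-4+anti-CD40, and cells given IL-4+anti-CD40 and 1 μM DSF. Groups without DSF received DMSO, the vehicle. No sample held DSF without a stimulus, so its effect on resting cells was not measured. The age of the mice that gave these B cells is not given in the sources used here. LPS is a bacterial ligand of Toll-like receptors and serves as a stimulus that needs no T cells. IL-4 together with an antibody to CD40 imitates T cell help. The second experiment held 1 sample each of the same 5 conditions and 1 of either stimulus with ibrutinib, an inhibitor of Bruton's tyrosine kinase. The paper describes the 4 samples of a group as biologically independent, but neither it nor the labels say whether they came from separate mice. The p-values measure the spread between these samples and may not cover that between mice.

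NF-κB is a family of dimeric transcription factors that rest in the cytoplasm, bound by IκB proteins. Toll-like receptors and CD40 activate kinases that have IκB degraded, and the freed dimers enter the nucleus. The canonical branch uses mainly RelA and c-Rel with the processed product of Nfkb1, whereas the noncanonical branch, which CD40 feeds, uses RelB with the processed product of Nfkb2. Several subunits and inhibitors are themselves targets of NF-κB, which gives the system feedback loops. In B cells, c-Rel and the Nfkb1 product are needed for growth and division after activation.

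The promoters are shown because the genes below moved together on stimulation and the motif bound by NF-κB can be read in them. RefSeq start sites (GRCm38.p6) were at hand for 7 of the 10 genes, with 12 start sites in all. Nfkb1, Relb and Nfkbiz had no entry. Each window of 300 bases, 250 of them upstream, was searched on both strands for the κB consensus. In the upstream bases, 8 of the 12 start sites (66.7%) held a match, against 2382 of 32851 start sites of all genes (7.25%). Counted by gene, 6 of 7 genes had a match at some start site (85.7%), against 8.23% of all 27025 genes. Palindromic matches were read on both strands and are counted once as a place, and a match is a description of letters and not of binding. The stretch of Nfkb2 is cut to 30 bases and that of Tnfaip3 to 137, because exons of annotated transcripts lie there, and the 30 bases shown for Nfkb2 are themselves exonic in such a transcript. The following upstream sequences run 5′ to 3′ on the strand of the gene, with the matches in capitals.
Rel, chr11:23770970-23771219, minus strand: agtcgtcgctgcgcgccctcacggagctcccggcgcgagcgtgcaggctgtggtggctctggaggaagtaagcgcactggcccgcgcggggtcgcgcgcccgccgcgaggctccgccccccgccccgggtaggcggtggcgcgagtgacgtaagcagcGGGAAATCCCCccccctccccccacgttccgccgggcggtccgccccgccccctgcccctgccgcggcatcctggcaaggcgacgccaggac
Nfkbia, chr12:55492648-55492897, minus strand: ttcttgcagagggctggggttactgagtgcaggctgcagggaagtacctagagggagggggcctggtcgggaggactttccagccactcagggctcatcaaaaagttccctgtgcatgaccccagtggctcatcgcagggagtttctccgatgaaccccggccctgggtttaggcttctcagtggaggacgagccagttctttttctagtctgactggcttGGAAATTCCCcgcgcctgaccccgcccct
Nfkbie, chr17:45555450-45555699, plus strand: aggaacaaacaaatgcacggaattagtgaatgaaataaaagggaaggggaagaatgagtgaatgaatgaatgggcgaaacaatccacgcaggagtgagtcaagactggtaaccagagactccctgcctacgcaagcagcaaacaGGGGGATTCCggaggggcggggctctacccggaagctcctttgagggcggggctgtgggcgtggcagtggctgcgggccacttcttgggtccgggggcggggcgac
Nfkbid, start site 2, chr7:30422156-30422405, plus strand: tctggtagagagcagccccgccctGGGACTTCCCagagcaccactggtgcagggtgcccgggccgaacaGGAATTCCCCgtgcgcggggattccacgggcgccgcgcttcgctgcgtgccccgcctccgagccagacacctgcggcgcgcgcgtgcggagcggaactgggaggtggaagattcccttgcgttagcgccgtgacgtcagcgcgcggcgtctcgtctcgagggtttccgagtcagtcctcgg
Tnfaip3, start site 1, chr10:19015411-19015547, minus strand: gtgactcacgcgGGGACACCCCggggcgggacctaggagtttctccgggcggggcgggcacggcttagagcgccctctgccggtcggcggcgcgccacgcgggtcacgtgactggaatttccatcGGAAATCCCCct
Nfkb2, start site 1, chr19:46304692-46304721, plus strand: cgtcacGGGAATTCCCCccctcggggggcc

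The match of Nfkbia began 29 bases upstream of its start site, that of Rel 92 bases and that of Nfkbie 106 bases upstream. Tnfaip3 had places beginning 125 and 12 bases upstream of its first start site, and Nfkb2 had places beginning 39 and 11 bases upstream of its own. Nfkbid had places beginning 226 and 181 bases upstream of its second start site, with no match at its other start sites. Rela was the gene whose window held no match.

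**Figure D1:**
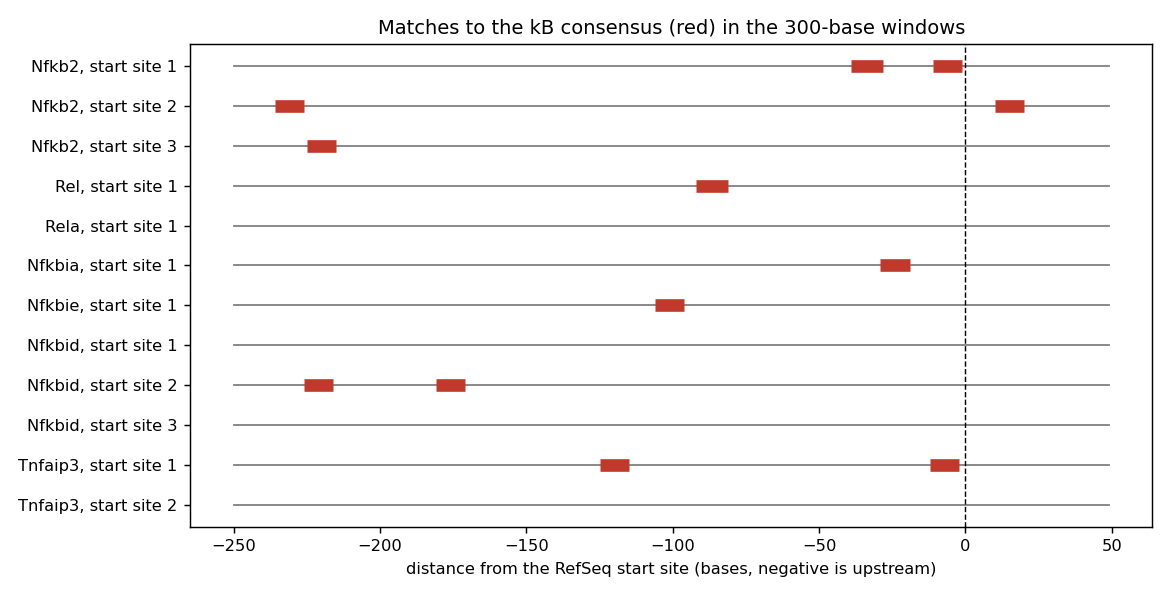
Places that match the κB consensus (red bars) in the 300-base windows around the 12 RefSeq start sites of 7 genes. The horizontal axis gives the distance from the start site in bases, negative upstream, and each grey line is 1 window. 8 of the 12 windows have a match upstream of the start site, and the windows of Rela, of the other start sites of Nfkbid and of the second of Tnfaip3 have none.

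Total counts were between 17804851 and 23632992 per library in the first experiment and between 16049295 and 24619776 in the second. The 10 genes are abundant, so counting error was small: the lowest count was 829 (Nfkbiz in unstimulated cells). The unstimulated libraries of the first experiment stood apart from each other as 2 pairs. The chi-square per gene was 2.86 between replicates 1 and 2 and 6.64 between replicates 3 and 4, but 84.8 to 90.7 across the pairs, and 2175 of 15575 genes (14.0%) differed 2-fold or more between the pairs. The vehicle libraries of IL-4+anti-CD40 fell into the same pairs by a smaller distance (3.49 and 6.41 within pairs, 15.6 to 27.2 across). Results that rest on these libraries are given with all 4, and with either pair where that moves a value or call. Defining B cell markers (9 of 9) were expressed in every group, and their levels moved: 5 fell and 1 rose under LPS, 4 fell and 1 rose under IL-4+anti-CD40, and with DSF 8 fell and 1 rose under LPS (median -0.52, log2) and 6 fell and 2 rose under IL-4+anti-CD40 (-0.56). Of the 10 myeloid markers, whose summed level was 551 to 656 CPM in unstimulated cells against 145 to 282 CPM in the other groups, 8 fell and 1 rose under LPS, and 7 fell under IL-4+anti-CD40. Lyz2 made most of the sum, with a mean of 447 CPM in unstimulated cells, while C1qa, C1qb and C1qc stayed below 2 CPM on average. In the second experiment the same sum was 29.5 to 47.5 CPM in all 7 libraries. The part of these markers, and of other cells, in the results was not tested, and in such bulk RNA fewer cells of a type and less RNA per cell cannot be told apart.

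Levels per gene length were read from the authors' FPKM (fragments scaled by gene length and library depth), which allow a comparison between genes. In unstimulated cells the highest mean was that of Nfkbia, which encodes the classical inhibitor IκBα, at 117 ± 5.97 FPKM (SD, n = 4). Nfkb2 followed at 94.8 ± 12.3 FPKM, with a range that overlapped that of Nfkbid. Nfkbid at 63.6 ± 37.9, Rela at 54.0 ± 5.25, Rel at 53.5 ± 28.7 and Nfkbie at 49.1 ± 4.35 FPKM lay within their spreads of each other. Nfkb1 at 34.9 ± 8.32 and Relb at 27.8 ± 6.24 FPKM also lay within theirs. Tnfaip3 at 13.6 ± 3.82 and Nfkbiz at 10.1 ± 3.08 FPKM were at the bottom, and their ranges overlapped. With LPS the order was Nfkbia (479 ± 10.9 FPKM), Nfkbid (308 ± 14.8 FPKM), Nfkb2 (222 ± 5.77 FPKM), Nfkbiz (183 ± 2.72 FPKM), Rel (168 ± 2.91 FPKM), Nfkbie (140.3 ± 6.85 FPKM), Nfkb1 (124 ± 2.53 FPKM), Tnfaip3 (121 ± 0.835 FPKM), Rela (75.8 ± 2.84 FPKM) and Relb (51.2 ± 0.718 FPKM), of which Nfkb1 and Tnfaip3 overlapped. Nfkbiz thus moved from the tenth place to the fourth. With IL-4+anti-CD40 Nfkbia (330.3 ± 25.8 FPKM) and Nfkb2 (198 ± 10.1 FPKM) led, and Nfkbiz (31.9 ± 2.86 FPKM) was last.

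**Figure D2:**
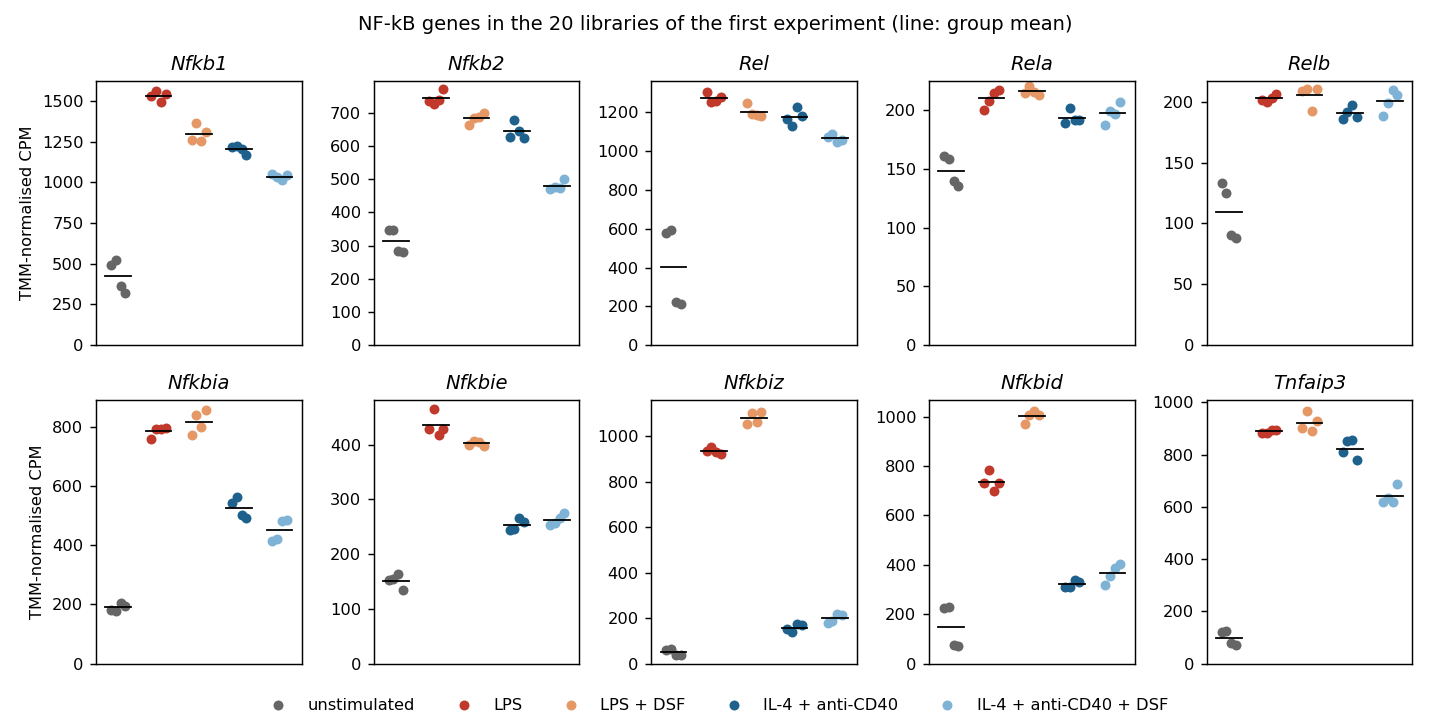
CPM of the 10 genes after TMM normalisation in the 20 libraries of the first experiment, with linear axes from 0. Each point is 1 library and the line is the mean of the group. Every library of the 4 stimulated groups lies above every unstimulated library for all 10 genes, and the unstimulated points of Rel and Nfkbid fall into 2 pairs, at 576 and 596 against 223 and 212 CPM for Rel. The share of all genes whose libraries separate in this way is not given here.

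LPS raised all 10 genes over unstimulated cells. In this comparison 29.6% of the 14477 genes tested were higher, by edgeR's quasi-likelihood test with a Benjamini-Hochberg adjusted p under 0.05, which is the threshold used throughout the first experiment. The median log2 fold change was 1.76 over the 10 genes, 1.24 over the subunits and 2.30 over the inhibitors, beside -0.05 over all genes tested. CPM below are counts scaled to library size after TMM normalisation, a method that assumes most genes do not change, and they serve to compare 1 gene between groups. Each fit has its own TMM factors, so small fitted changes can differ from those of the CPM shown.

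Among the subunits, Nfkb1, whose product is processed into a DNA-binding subunit without an activation domain, measured 494, 521, 364 and 322 CPM in unstimulated replicates 1 to 4. With LPS it measured 1527, 1559, 1489.7 and 1542 CPM, a rise of 3.61-fold (log2 1.85, SE 0.15, adjusted p 1.41e-05, edgeR). Nfkb2, the corresponding gene of the noncanonical branch, went from 348, 347, 283 and 281 CPM to 735, 727, 740.0 and 771 CPM (log2 1.24, SE 0.09, adjusted p 7.21e-06, edgeR). Both genes had all LPS libraries well above all unstimulated ones.

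Rel, which encodes c-Rel, measured 576, 596, 223 and 212 CPM in unstimulated cells and 1306, 1255, 1259 and 1280.3 CPM with LPS. Its log2 fold change was 1.67 (SE 0.35, adjusted p 0.00266, edgeR), and it was 1.12 against unstimulated replicates 1 and 2 and 2.58 against replicates 3 and 4. The LPS libraries were close together, and the unstimulated ones fell into 2 levels. Rela, which encodes the main activating subunit, rose least, from 160.4, 158, 139 and 135 CPM to 199.7, 208, 215 and 217 CPM (log2 0.50, SE 0.07, adjusted p 0.000341, edgeR). Relb, the activating subunit of the noncanonical branch, went from 133, 125, 90.2 and 88.0 CPM to 201, 200.1, 204 and 207 CPM (log2 0.90, SE 0.14, adjusted p 0.000469, edgeR).

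Among the inhibitors, Nfkbia went from 183, 179, 203 and 194 CPM to 761, 794, 795 and 797 CPM with LPS (4.15-fold, log2 2.05, SE 0.07, adjusted p 1.22e-07, edgeR). Nfkbie, which encodes IκBε, a further cytoplasmic inhibitor, rose from 153, 154, 163 and 134 CPM to 429, 466, 418 and 429 CPM (log2 1.53, SE 0.07, adjusted p 9.87e-07, edgeR). For these genes the pairs of unstimulated libraries differed little, with mean ratios of pair 1 and 2 to pair 3 and 4 of 0.912 and 1.03.

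Nfkbiz and Nfkbid encode the nuclear IκB proteins IκBζ and IκBNS, which act on NF-κB bound to DNA. Their place among the inhibitors is a grouping, and whether they lowered NF-κB activity in these cells was not tested. Nfkbiz rose most of the 10 genes, from 61.7, 66.3, 38.7 and 37.3 CPM to 936, 955, 931 and 923 CPM (18.4-fold, log2 4.20, SE 0.21, adjusted p 1.05e-06, edgeR). Nfkbid went from 226, 228, 77.0 and 70.6 CPM to 729.7, 782, 699 and 733 CPM, at 2.30 on the log2 scale (SE 0.40, adjusted p 0.000999, edgeR). Its fold change was 1.70 against unstimulated replicates 1 and 2 and 3.35 against replicates 3 and 4, on the log2 scale.

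Tnfaip3 encodes a ubiquitin-editing enzyme that shuts down signalling upstream of IκB. It rose from 119.6, 125, 79.7 and 72.9 CPM to 884, 884, 895 and 894 CPM with LPS (8.96-fold, log2 3.16, SE 0.18, adjusted p 2.34e-06, edgeR). The 4 LPS libraries were almost level, and none came near an unstimulated one.

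IL-4+anti-CD40 also raised all 10 genes, in a comparison in which 30.4% of 14433 genes tested were higher. The comparison shares its 4 unstimulated libraries with that of LPS. The median log2 fold change was 1.34 over the 10 genes, 1.09 over the subunits and 1.52 over the inhibitors, beside -0.04 over all genes. The subunits reached 1214, 1223, 1202 and 1167 CPM for Nfkb1 (log2 1.55, SE 0.15), 627, 678, 646 and 624 CPM for Nfkb2 (log2 1.09, SE 0.10), and 1165, 1129, 1225 and 1182 CPM for Rel (log2 1.60, SE 0.34). Rela (log2 0.44, SE 0.08) and Relb (log2 0.86, SE 0.14) rose least again. The largest adjusted p among the 5 subunits was 0.00289 for Rel (edgeR).

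Tnfaip3 rose about as much as with LPS, to 808, 852, 856 and 778 CPM (8.61-fold, log2 3.11, SE 0.19, adjusted p 3.31e-06, edgeR). Nfkbia reached 542, 563, 504 and 494 CPM (log2 1.52, SE 0.09), Nfkbie 245, 247, 265 and 259 CPM (log2 0.80, SE 0.07) and Nfkbiz 152, 138, 173 and 172 CPM (log2 1.69, SE 0.19). Nfkbid measured 309, 309.8, 337 and 332 CPM, or 1.15 on the log2 scale (SE 0.38, adjusted p 0.0242, edgeR). The call for Nfkbid was lost without unstimulated replicate 3 (adjusted p 0.0546, edgeR), without IL-4+anti-CD40 replicate 3 (adjusted p 0.0508, edgeR) and under scaling by total counts (adjusted p 0.0534, edgeR). It was lost too with vehicle replicates 1 and 2 alone (adjusted p 0.115, edgeR) or 3 and 4 alone (0.101). Its log2 fold change was 0.53 against unstimulated replicates 1 and 2 and 2.19 against replicates 3 and 4. All 10 genes passed the threshold with either stimulus against either pair of unstimulated libraries, with a largest adjusted p of 0.00163 (edgeR). In those fits 5005 of 15090 genes tested were higher with LPS against replicates 1 and 2, and 5618 of 15229 against replicates 3 and 4. With IL-4+anti-CD40 they were 4352 of 15066 and 5157 of 15335. Using 1 pair leaves out the spread between the pairs, so the p-values of these fits can be smaller even where the change is smaller. For Nfkbid the log2 fold change of 0.53 had an adjusted p of 7.2e-05 (edgeR).

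**Figure D3:**
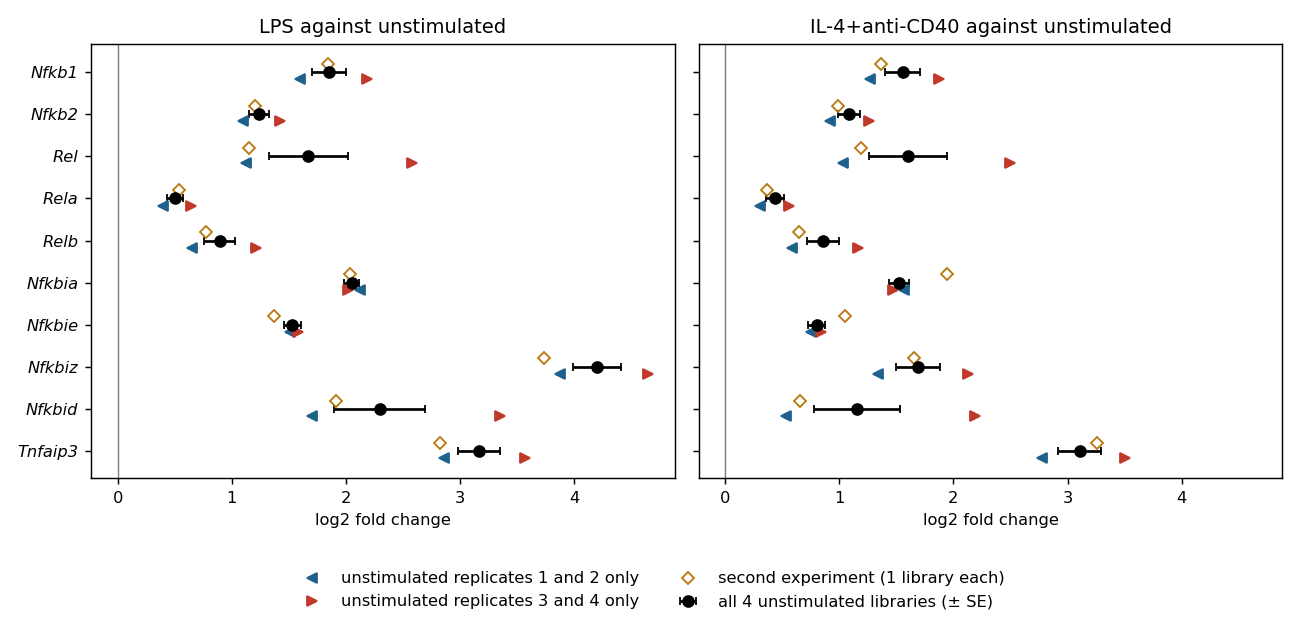
Log2 fold change of the 10 genes with LPS (left) and IL-4+anti-CD40 (right) against unstimulated cells. Black points are the fits with all 4 unstimulated libraries (bars, SE), triangles the fits with 1 pair of them, and open diamonds the ratios of single libraries in the second experiment. Rel and Nfkbid move most with the choice of unstimulated pair, and Nfkbiz separates the stimuli most, with values of 4.20 (LPS) and 1.69 (IL-4+anti-CD40).

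The stimuli were then compared directly, which leaves the unstimulated libraries out. LPS cells were higher for 8 of the 10 genes and lower for none, where 22.3% of 14078 genes tested were higher and 17.3% lower. The median log2 difference was 0.12 over the subunits and 0.78 over the inhibitors, beside -0.01 over all genes. The nuclear IκB genes differed most: Nfkbiz was 5.93-fold higher with LPS (log2 2.57, SE 0.07, adjusted p 2.49e-10, edgeR) and Nfkbid 2.30-fold (log2 1.20, SE 0.05, adjusted p 4.87e-09, edgeR). Nfkbie (log2 0.78, SE 0.05) and Nfkbia (log2 0.59, SE 0.05) were higher too, with no overlap between the libraries. Nfkb1 (log2 0.35, SE 0.04) and Nfkb2 (log2 0.21, SE 0.04) showed smaller differences, and Nfkb2 lost its call under total counts (log2 0.08, adjusted p 0.148, edgeR). Rel (log2 0.12, SE 0.04, adjusted p 0.0326, edgeR) and Rela (log2 0.12, SE 0.05, adjusted p 0.0488, edgeR) were barely past the threshold, and their direction turned under total counts, to -0.01 each. The Rel call was lost without LPS replicate 1 or 4 or IL-4+anti-CD40 replicate 1, 2 or 4, and the Rela call without LPS replicate 2, 3 or 4 or IL-4+anti-CD40 replicate 1, 3 or 4, with adjusted p of 0.0612 to 0.0985 and 0.0793 to 0.135 (edgeR). With IL-4+anti-CD40 replicates 3 and 4 alone the Rel call was lost (0.146), and with replicates 1 and 2 alone that of Rela (0.0822). Relb (log2 0.10, SE 0.04, adjusted p 0.0834, edgeR) and Tnfaip3 (log2 0.12, SE 0.04, adjusted p 0.0563, edgeR) did not pass it.

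DSF changed the 10 genes by small amounts in the first experiment. With LPS, 2 of the 10 genes were higher with DSF than with vehicle and 3 were lower, where 35.1% of 14154 genes tested were higher and 36% lower. The 10 genes had a median of 0.05 (log2) and all genes one of 0.00, and no gene of the 10 moved by more than 0.46 on the log2 scale. Nfkbid rose from 729.7, 782, 699 and 733 CPM to 972, 1006, 1022 and 1008 CPM (1.38-fold, log2 0.46, SE 0.04, adjusted p 3.07e-10, edgeR). Nfkbiz rose from 936, 955, 931 and 923 CPM to 1055, 1103, 1064 and 1108 CPM (1.17-fold, log2 0.23, SE 0.04, adjusted p 9.16e-06, edgeR), and this call was lost under total counts (log2 0.02). Both groups of libraries were apart for either gene.

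Nfkb1 fell from 1527, 1559, 1489.7 and 1542 CPM to 1259, 1361, 1256 and 1308 CPM (log2 -0.22, SE 0.04, adjusted p 2.25e-05, edgeR). Nfkb2 (log2 -0.11, SE 0.04, adjusted p 0.0172, edgeR) and Nfkbie (log2 -0.10, SE 0.04, adjusted p 0.0365, edgeR) fell by less. The Nfkbie call was lost without any of LPS replicate 2, LPS with DSF replicate 3 or LPS with DSF replicate 4 (adjusted p 0.0678, 0.0508 and 0.0576, edgeR). Rel (log2 -0.07), Rela (0.06), Relb (0.04), Nfkbia (0.07) and Tnfaip3 (0.07) had SEs of 0.04 and adjusted p of 0.106 or more (edgeR). Rel was called lower in other settings, with DESeq2 (adjusted p 0.0215), limma (0.0405), no filter (0.00518), without LPS replicate 3 (0.0432) and without LPS with DSF replicate 1 (0.0305). Tnfaip3 measured 900.5, 966, 889 and 929.6 CPM with DSF against 884, 884, 895 and 894 CPM without, and the groups overlapped.

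With IL-4+anti-CD40, 1 of the 10 genes was higher with DSF and 5 were lower, where 30.1% of 14275 genes tested were higher and 31.6% lower. The 10 genes had a median of -0.12 (log2) and all genes one of -0.02. Nfkb2 fell most, from 627, 678, 646 and 624 CPM to 470.1, 475, 474 and 502 CPM (1.40-fold lower, log2 -0.48, SE 0.05, adjusted p 9.21e-06, edgeR). Tnfaip3 fell from 808, 852, 856 and 778 CPM to 619, 634, 619.8 and 688 CPM (1.34-fold lower, log2 -0.42, SE 0.06, adjusted p 5.53e-05, edgeR). In both genes every DSF library lay below every vehicle library.

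Nfkbia fell from 542, 563, 504 and 494 CPM to 415, 421, 482 and 487 CPM (log2 -0.28, SE 0.07, adjusted p 0.00464, edgeR), with the highest DSF library just below the lowest vehicle library. Its log2 fold change was -0.36 against vehicle replicates 1 and 2 (adjusted p 0.000421, edgeR) and -0.19 against replicates 3 and 4 (adjusted p 0.0410, edgeR). Nfkb1 (log2 -0.28, SE 0.05) and Rel (log2 -0.20, SE 0.05) fell as well, with adjusted p of 0.000397 and 0.00367 (edgeR). Nfkbiz was the gene that rose, from 152, 138, 173 and 172 CPM to 179.9, 189.7, 217 and 213 CPM (log2 0.27, SE 0.08, adjusted p 0.0119, edgeR), and this call was lost under total counts (log2 0.12, adjusted p 0.204, edgeR) and against vehicle replicates 3 and 4 alone (log2 0.17, adjusted p 0.0601, edgeR). Nfkbid (log2 0.13, SE 0.07, adjusted p 0.127), Rela (-0.03, SE 0.05), Relb (0.02, SE 0.05) and Nfkbie (-0.01, SE 0.05) did not pass the threshold (edgeR), but Nfkbid did without DSF replicate 1 (log2 0.19, adjusted p 0.0225, edgeR).

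The samples in the fit and the scaling bear on these small changes. In the fit with all 20 libraries none of the 5 calls with LPS held (adjusted p 0.0567 for Nfkb1 and 0.155 for Nfkbid, edgeR), and with IL-4+anti-CD40 those of Nfkb1 (adjusted p 0.0894) and Rel (0.636) did not. Under total counts the median of all genes moved to -0.21 for DSF under LPS and to -0.16 for DSF under IL-4+anti-CD40, and among the 10 genes 1 was then higher and 8 lower under LPS, against 0 higher and 8 lower under IL-4+anti-CD40. Of all genes 24.5% were then higher and 47.2% lower under LPS, and 22.9% and 40.9% under IL-4+anti-CD40. Rela, Relb, Nfkbia and Tnfaip3 with LPS turned to lower under this scaling (log2 -0.15, -0.17, -0.14 and -0.14), values that lie above the median shift. Nfkbid with LPS stayed higher and kept its call under total counts. Nfkb1 and Nfkb2 with either stimulus, Nfkbie with LPS, and Rel, Nfkbia and Tnfaip3 with IL-4+anti-CD40 stayed lower and kept theirs. This scaling moved values down, so genes already lower could hardly lose their calls, and their keeping them says little. In these comparisons 49.4% and 48.8% of all called genes were higher under TMM, against 34.2% and 35.9% under total counts. For the stimuli against unstimulated cells the shares were 47.1% and 48.6% under TMM and 31.2% and 38.3% under total counts, and for LPS against IL-4+anti-CD40 they were 56.3% and 34.0%.

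**Figure D4:**
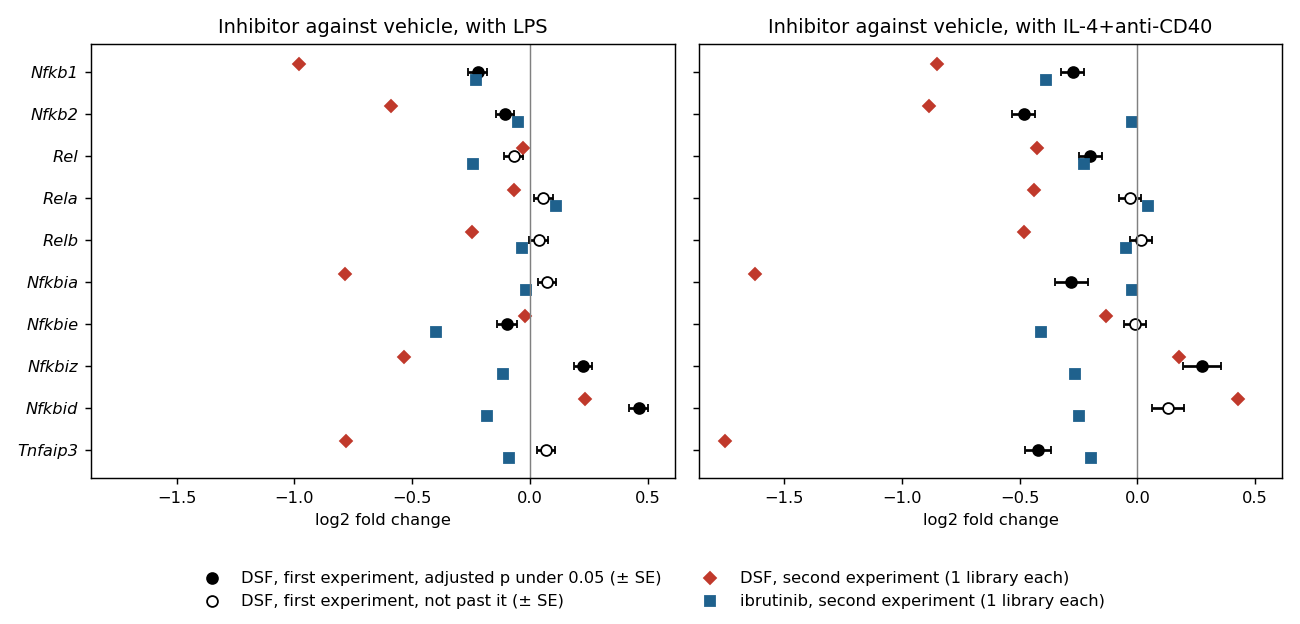
Log2 fold change with an inhibitor against the vehicle, with LPS (left) and with IL-4+anti-CD40 (right). Circles are DSF in the first experiment (bars, SE; filled where the adjusted p was under 0.05), diamonds are DSF and squares ibrutinib in single libraries of the second experiment. The circles lie between -0.48 and 0.46, whereas the diamonds of Tnfaip3 and Nfkbia reach -1.75 and -1.62 with IL-4+anti-CD40.

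The effect of DSF was compared between the stimuli in 1 fit over 16 libraries with an interaction term. The difference passed the threshold for 4 of the 10 genes, where 14.9% of 15130 genes tested did. Tnfaip3 differed by 0.49 (SE 0.07, adjusted p 4.82e-05), Nfkb2 by 0.37 (SE 0.06, adjusted p 0.000297), Nfkbia by 0.35 (SE 0.08, adjusted p 0.00761) and Nfkbid by 0.33 (SE 0.08, adjusted p 0.0109) on the log2 scale (edgeR). In each the value with LPS was the higher one in this fit. The single libraries of the second experiment, which had no test, kept this order for Tnfaip3, Nfkb2 and Nfkbia. They reversed it for Nfkbid, where DSF cells stood above vehicle by 0.24 (log2) under LPS but by 0.43 under IL-4+anti-CD40. In the fit with all 20 libraries none of the 10 passed, with adjusted p for these 4 of 0.0711 to 0.757. The spread that this fit uses includes the unstimulated libraries. Rel, Rela, Relb, Nfkb1, Nfkbie and Nfkbiz had adjusted p of 0.149 or more (edgeR).

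Cells given a stimulus and DSF still had all 10 genes above unstimulated cells. This held with LPS, where 34.3% of 14663 genes tested were higher, and with IL-4+anti-CD40, where 33.4% of 14678 were. Under total counts Rela lost its call with both stimuli (adjusted p 0.227 and 0.307, edgeR) and Nfkbid with IL-4+anti-CD40 (0.0553). The log2 fold change of Nfkbid with IL-4+anti-CD40 and DSF was 0.66 against unstimulated replicates 1 and 2 and 2.32 against replicates 3 and 4, and that of Rel was 0.83 and 2.30. With LPS and DSF the values were 2.09 and 3.75 for Nfkbid and 0.98 and 2.45 for Rel. As a description, the rise in CPM that remained with DSF was set against the rise without it, from group means. With LPS the share was 78.9% for Nfkb1, 85.9% for Nfkb2, 88.4% for Nfkbie and 91.5% for Rel. It was 104% for Tnfaip3, 105% for Nfkbia, 117% for Nfkbiz and 145% for Nfkbid, with Relb at 103% and Rela at 109.5%. Of these genes only Nfkbiz and Nfkbid were called higher with DSF than with vehicle. With IL-4+anti-CD40 the share was 50.3% for Nfkb2 (47.1% to 56.9% over the 4 DSF libraries), 74.7% for Tnfaip3, 77.8% for Nfkbia, 78.6% for Nfkb1 and 85.9% for Rel. It was 108% for Nfkbie, 109% for Rela (86.4% to 129%), 113% for Relb (97.7% to 123%), 126% for Nfkbid (99.0% to 148%) and 138% for Nfkbiz. Of these genes only Nfkbiz was called higher with DSF than with vehicle. The share for Nfkb2 was 44.8% with unstimulated replicates 1 and 2 as the base and 54.8% with replicates 3 and 4.

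In the second experiment each condition is a single library, so the ratios have no replicate check and no test. Genes are called here at 2-fold, after TMM normalisation with a prior count of 2, among the 14275 genes that averaged 10 counts or more. With LPS 8 of the 10 genes were 2-fold or more higher than in unstimulated cells and 0 lower, where 8.62% of all genes were higher and 9.88% lower. Under IL-4+anti-CD40 6 of the 10 were higher and 0 lower, where 10.7% of all genes were higher and 13.7% lower, and Nfkbie fell short of 2-fold under total counts (log2 0.91 from 1.05). The log2 ratios with LPS were 3.74 for Nfkbiz, 2.82 for Tnfaip3, 2.04 for Nfkbia, 1.92 for Nfkbid, 1.84 for Nfkb1, 1.37 for Nfkbie, 1.20 for Nfkb2 and 1.15 for Rel, with Relb at 0.77 and Rela at 0.54. With IL-4+anti-CD40 Tnfaip3 had the highest ratio (3.26) and Nfkbia the next (1.94), while Nfkbiz was at 1.66 and Nfkbid at 0.66. The unstimulated library measured 580.4 CPM for Rel and 211 CPM for Nfkbid, levels nearer to replicates 1 and 2 of the first experiment than to replicates 3 and 4, although the tables were normalised separately.

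With DSF and LPS 9 of the 10 ratios to vehicle were below 0, with a median of -0.39 beside -0.04 over all genes. Those of Rel (-0.03) and Nfkbie (-0.02) were close to 0. No gene of the 10 passed 2-fold in either direction, where 20.3% of all genes were higher and 19.5% lower. Nfkb1 measured 893 CPM against 1761 CPM (log2 -0.98), Nfkbia 391 against 673 CPM (-0.78) and Tnfaip3 366 against 628 CPM (-0.78). Nfkbiz was at 595 against 863 CPM (-0.53), whereas it had been higher with DSF in the first experiment. Nfkbid was the gene with a ratio above 0, at 939.6 against 798 CPM (0.24). Under total counts Nfkb1 (-1.29), Nfkbia (-1.09) and Tnfaip3 (-1.09) were past 2-fold. That scaling lowers the ratio of every gene, as the TMM factors were 0.840 for LPS with DSF and 1.04 for LPS. The share of all genes past 2-fold under it is not given here.

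With IL-4+anti-CD40 2 of the 10 genes were 2-fold or more lower with DSF and 0 were higher, where 20.3% of all genes were lower and 21.9% higher. These were Tnfaip3, at 253 against 850.3 CPM (log2 -1.75), and Nfkbia, at 204 against 629 CPM (-1.62). Nfkb2 measured 341 against 630.0 CPM (-0.89) and Nfkb1 704 against 1270.2 CPM (-0.85). Under total counts these were past 2-fold as well (-1.13 and -1.10). Here too that scaling lowers the ratio of every gene (TMM factors of 0.879 with DSF and 1.04 with vehicle), and the share of all genes is not given. Nfkbid (0.43) and Nfkbiz (0.18) had ratios above 0. Nfkb1, Nfkb2, Nfkbia and Tnfaip3 were below vehicle with this stimulus in both experiments, and each ratio was further down in the second.

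With ibrutinib 9 of the 10 ratios to vehicle were below 0 under either stimulus. None was 2-fold higher or lower with LPS, where 2.81% of all genes were higher and 2.47% lower, or with IL-4+anti-CD40, where 2.23% were higher and 1.69% lower, shares at which 0 of 10 says little of these genes. The median log2 ratio was -0.10 under LPS and -0.21 under IL-4+anti-CD40, beside 0.01 and 0.00 over all genes. Nfkbie had the lowest ratio with either stimulus (-0.40 and -0.41), followed with IL-4+anti-CD40 by Nfkb1 (-0.39). Tnfaip3 was at -0.09 and -0.20 and Nfkbia at -0.02 and -0.02, beside -0.78 and -1.75 for Tnfaip3 and -0.78 and -1.62 for Nfkbia with DSF. With 1 library each, these differences between the inhibitors were not tested.

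The other genes of the pathway were read from lists written with earlier results of these data known. Of the IκB genes outside the 10, Nfkbib (IκBβ) rose with LPS (log2 1.37, SE 0.10) and IL-4+anti-CD40 (1.28, SE 0.12), and Bcl3, a nuclear IκB protein that joins the Nfkb1 and Nfkb2 products, rose too (2.12, SE 0.17, and 1.13, SE 0.17). With DSF Bcl3 fell with both stimuli (log2 -0.81, SE 0.04, adjusted p 1.88e-15 under LPS, and -0.55, SE 0.06, adjusted p 8.68e-06 under the other stimulus, edgeR), by more than any of the 10 genes. Nfkbib did not pass the threshold with DSF (log2 0.06, SE 0.04, and -0.13, SE 0.08).

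Of 24 targets of NF-κB, 23 were higher under LPS and 19 under IL-4+anti-CD40, and none was lower, with median log2 fold changes of 2.85 and 2.23. Of all genes 29.6% were higher and 33.3% lower under LPS, and 30.4% and 32.1% under IL-4+anti-CD40, shares that also stand beside the next lists. The targets that rose most were the chemokine genes Cxcl10 (8.62) and Ccl4 (5.52) and the cytokine gene Il6 (6.05) with LPS. With IL-4+anti-CD40 they were the cyclin gene Ccnd2 (4.31), the survival gene Bcl2l1 (3.95) and Il6 (3.70). With DSF and LPS 7 targets were higher and 12 lower (median -0.16), where 35.1% and 36% of all genes were, among them Ier3 (1.26), Bcl2a1d (-1.24) and Ccnd2 (-0.97). With DSF and IL-4+anti-CD40 3 were higher and 12 lower (median -0.15), where 30.1% and 31.6% of all genes were, and Ccnd2 (-1.70), Bcl2a1d (-1.49) and Bcl2a1b (-1.22) fell most. In the second experiment targets were called at 2-fold, without a test. With DSF under LPS 1 target was higher and 12 lower (median -1.01), where 20.3% and 19.5% of all genes were. Under IL-4+anti-CD40 0 were higher and 14 lower (-1.17), where 21.9% and 20.3% of all genes were. The Bcl2a1 genes are near-identical copies, so their reads may be split between them.

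Of 22 upstream genes (receptor adaptors, kinases and the linear ubiquitin complex), 11 rose and 6 fell under LPS, and 11 rose and 4 fell under IL-4+anti-CD40. The kinase gene Ikbke (1.92 and 2.48) rose with both stimuli, as did the ubiquitin ligase gene Birc2 (0.96 and 0.83). Traf5, an adaptor of CD40 and related receptors, fell with IL-4+anti-CD40 (-2.15). With DSF 10 rose and 7 fell under LPS, where 35.1% of all genes rose and 36% fell. Bcl10 (1.13), Tbk1 (1.01) and Malt1 (0.76) led those that rose. With DSF and IL-4+anti-CD40 6 rose and 9 fell, among them Tbk1 (0.81) and Birc2 (-0.86), where 30.1% of all genes rose and 31.6% fell. Of 10 other negative regulators, 6 rose and 4 fell under LPS, and 4 rose and 4 fell under IL-4+anti-CD40. N4bp1 (1.38), Tank (0.98) and Tnip3 (2.32, SE 0.85) rose with LPS, and Tank (1.07), Rnf11 (0.78) and Tnip2 (0.61) with IL-4+anti-CD40. With DSF 6 of them rose and 2 fell under LPS, and 4 rose and 0 fell under IL-4+anti-CD40, beside the same shares of all genes as for the targets. Tax1bp1, an adaptor of the enzyme made by Tnfaip3, rose with DSF under both stimuli (0.95 and 1.01), as did Tank (0.76 and 0.46). N4bp1 rose with DSF as well (0.62 and 0.71), and Tnip3 fell under LPS (-0.98).

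**Figure D5:**
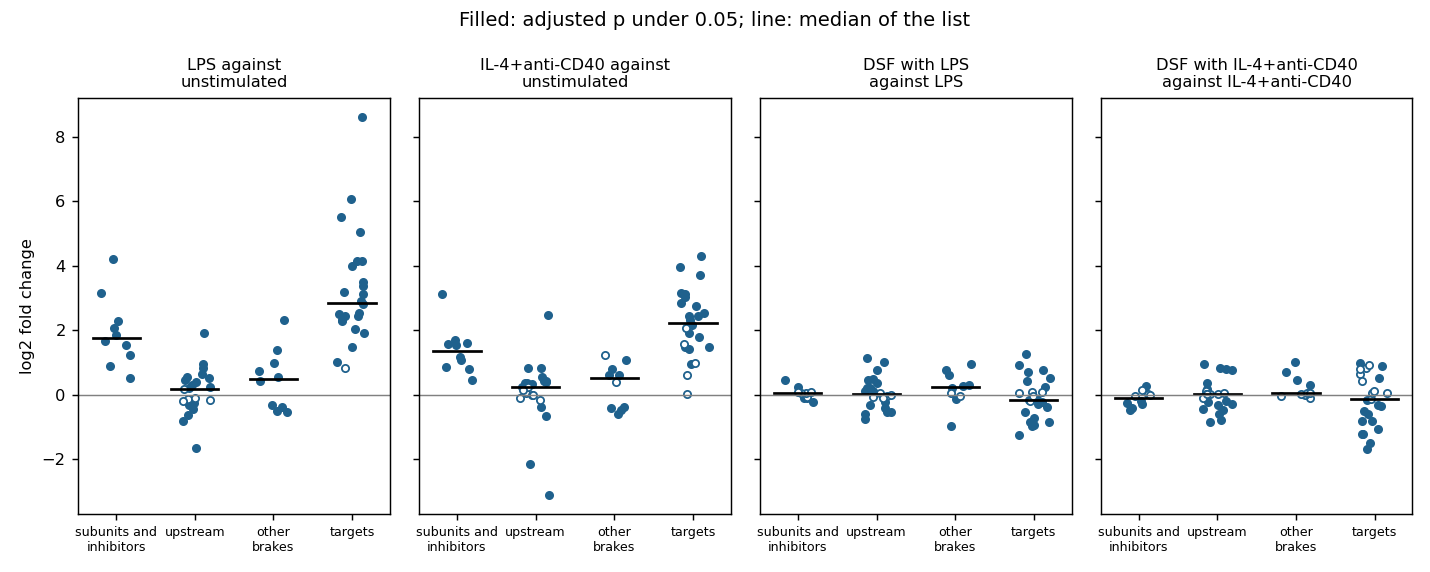
Log2 fold changes of the 10 genes and of the lists of 22 upstream genes, 10 other negative regulators (brakes) and 24 targets in 4 comparisons of the first experiment. Each point is 1 gene, filled where the adjusted p was under 0.05, and the line is the median of the list. The medians of the 10 genes and of the targets lie at 1.76 and 2.85 with LPS, and all 4 lists have medians between -0.16 and 0.22 with DSF.

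The gene with the closest pattern to each of the 10 was sought among 15575 genes over the 20 libraries, by the root mean square difference of log2 CPM after centring each gene. It was Wdr43 for Nfkb1 (0.0905), Ltv1 for Nfkb2 (0.120), Gm9115 for Rel (0.161), Rab10 for Rela (0.0668) and Stat6 for Relb (0.0734). For the inhibitors it was Cd40 for Nfkbia (0.176), Tomm70a for Nfkbie (0.132), Gdap10 for Nfkbiz (0.491), Stx11 for Nfkbid (0.239) and Traf1 for Tnfaip3 (0.292). Cd40 and Traf1, an adaptor of the TNF receptor family, were also on the list of targets. Nfkbiz had the largest difference from its partner among the 10, and also the largest spread about its own mean (1.68). These are descriptions over libraries that share their stimulus and treatment.

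Some counts could include reads of other genes, because the strand setting of the counting is not given in the sources used here. Nfkb2 (chr19:46304737-46312090, plus strand) overlaps Psd on the other strand, with a mean of 2652 counts for Psd over the 20 libraries, and Nfkb1 (chr3:135584655-135691547, minus strand) overlaps Gm43430 on the same strand, with a mean of 39.9 counts. The other 8 genes overlapped no gene in the deposited annotation.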

How the data were processed

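RNA of mouse splenic B cells was sequenced after poly-T selection in 27 samples, 20 in the first experiment and 7 in the second. The authors trimmed reads with Fastp, aligned them to mm10 with HISAT2 2.0.5 and counted them per gene with featureCounts 1.5.0-p3, and the deposited tables hold these raw counts. The deposited FPKM values were made by the authors from the same counts and gene lengths and served only to compare levels between genes. The strand setting of the counting is not given in the sources used here. Samples were grouped by the labels. The 10 genes and all lists were chosen with earlier results of these data known.

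Each pair of groups (8 libraries) was tested with edgeR 4.0.16 in R 4.3.3, with TMM factors, its filter on low counts and the quasi-likelihood test, and p-values were adjusted by Benjamini-Hochberg over all genes tested at a threshold of 0.05. The effect of DSF was compared between stimuli in an interaction term over 16 libraries. The SE was the log2 fold change over the square root of the F statistic. In the second experiment log2 ratios were taken with a prior count of 2, without a test. Named genes of the pathway lists were the 3 with the largest changes past the threshold in each list and comparison, except for an item that is not reported here. The test was checked on simulated counts. Alternatives were DESeq2 1.42.0, other scalings and filters, limma 3.58.1 on log2(FPKM + 0.1), all 20 libraries, a replicate block, a fold minimum and leaving out each library. The use of either pair of unstimulated or of IL-4+anti-CD40 vehicle libraries was added after seeing the data. Promoter windows came from RefSeq (GRCm38.p6). Total counts of 16049295 to 24619776 per library set the counting precision.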

Additional observations from a re-analysis of the deposited data

Results flagged for a closer look

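In 3 of the 50 groups of 4 libraries (10 genes in 5 groups), 1 library stood apart by Dixon's criterion at the 95% level, which chance passes in about 1 of 20 groups. Nfkb2 measured 502 CPM in replicate 4 of IL-4+anti-CD40 with DSF, above 470.1 to 475 CPM in the others. Relb measured 193 CPM in replicate 3 of LPS with DSF, below 209 to 211 CPM in the others. Nfkbia measured 761 CPM in LPS replicate 1, below 794 to 797 CPM in the others.

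The effect of DSF differed between the stimuli for 4 genes by the interaction term (edgeR, adjusted p under 0.05): by 0.37 for Nfkb2, 0.35 for Nfkbia, 0.33 for Nfkbid and 0.49 for Tnfaip3 on the log2 scale, LPS minus IL-4+anti-CD40. In the second experiment, without a test, Nfkbid went the other way (0.24 under LPS, 0.43 under IL-4+anti-CD40). Nfkb2, Nfkbia and Tnfaip3 kept their direction there.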

How the results depend on the processing

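The calls of the 10 genes against unstimulated cells held in nearly every setting tried. Of 80 fold changes in 8 comparisons, 77 kept direction and side of the threshold with DESeq2, 75 with DESeq2 size factors, 75 with no filter, 75 with at least 10 counts in every library, 75 with limma on FPKM, 63 with all 20 libraries and 58 under total counts. All 40 fold changes against unstimulated cells kept their calls with either pair of unstimulated libraries, a setting chosen after seeing the data. That setting leaves out the spread between the pairs, which makes calls easier to keep. The cause of the changes below was not tested.

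Under total counts 5 genes were higher with LPS than with IL-4+anti-CD40, DSF with LPS gave 1 higher and 8 lower, and DSF with IL-4+anti-CD40 gave 0 higher and 8 lower. Of all genes 17.2% were then higher and 33.5% lower with LPS than with IL-4+anti-CD40. For DSF the shares were 24.5% higher and 47.2% lower under LPS, and 22.9% and 40.9% under IL-4+anti-CD40. The shares of all genes in the settings that follow are not given here. With at least 10 counts in every library DSF with LPS gave 4 higher. With all 20 libraries DSF with LPS gave 0 higher and 0 lower, DSF with IL-4+anti-CD40 gave 3 lower, and the interaction gave 0. With an absolute log2 fold change of at least 1, LPS against IL-4+anti-CD40 gave 2 higher, both DSF comparisons and the interaction gave 0, and IL-4+anti-CD40 with DSF against unstimulated cells gave 6. Leaving out 1 library gave 1 to 2 higher with DSF and IL-4+anti-CD40, with 2 without DSF replicate 1.

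Directions turned near 0, apart from those under total counts, which moved the median of all genes by -0.41 to -0.05. These were, under total counts, LPS against IL-4+anti-CD40 for Rel (-0.0115), Rela (-0.0105), Relb (-0.0389) and Tnfaip3 (-0.0185), DSF with LPS for Rela (-0.151), Relb (-0.170), Nfkbia (-0.136) and Tnfaip3 (-0.140), DSF with IL-4+anti-CD40 for Relb (-0.134) and Nfkbid (-0.0208), and the interaction for Nfkb1 (-0.0065) and Relb (-0.0363). With no filter they were Rela (-0.0028) and Relb (-0.0217) for DSF with LPS and Relb (-0.0025) for DSF with IL-4+anti-CD40. For DSF with IL-4+anti-CD40, Nfkbie turned with DESeq2 size factors (0.0058), at least 10 counts (0.0180), all 20 libraries (0.0479) and limma (0.0083), and Rela with at least 10 counts (3.63e-05) and all 20 libraries (0.0301). For the interaction, Relb turned with DESeq2 (-0.0108), DESeq2 size factors (-0.0069), all 20 libraries (-0.0550) and limma (-0.0169), and Nfkb1 with all 20 libraries (-0.0241).

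With either pair of the IL-4+anti-CD40 vehicle libraries, also chosen after seeing the data, 37 and 35 of 40 fold changes kept direction and call. With replicates 1 and 2 Nfkbie turned to 0.0267 for DSF with IL-4+anti-CD40. With replicates 3 and 4 that comparison gave 0 higher, Rela turned to 0.0038 in it, and Nfkbiz turned to 0.0484 in the interaction. The 4 interaction calls held with either pair.

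Leaving out 1 library gave DSF with IL-4+anti-CD40 values of -0.0304 to 0.0039 for Nfkbie, -0.0491 to 0.0030 for Rela and -0.0046 to 0.0411 for Relb, and interaction values of -0.0931 to 7.8e-05 for Nfkbiz and -0.0013 to 0.0460 for Relb. The deviations of same-numbered samples from their group means had correlations of -0.056 to 0.169. The highest were 0.169 for replicate 1 and 0.147 for replicate 4, both for DSF with IL-4+anti-CD40. With 4 libraries per group, these values cannot tell whether the numbers pair the samples. With the replicate block 78 of 80 calls were kept, and for LPS against IL-4+anti-CD40 the block left Rel at a log2 fold change of 0.12 (adjusted p 0.0820, edgeR) and Rela at 0.12 (adjusted p 0.109, edgeR), both no longer past the threshold.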
